A study of Mus musculus with 6 samples.

Results

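The regulators described here are 10 transcription factor genes of the primitive streak and the mesoderm that forms from it: T, Eomes, Mixl1, Mesp1, Lhx1, Foxf1, Tbx6, Gsc, Evx1 and Msgn1. They were chosen by name, as rows of a count table that holds 24421 gene entries, and all 10 names were found. The table comes from bulk RNA sequencing of mouse induced pluripotent stem cells (iPSCs), cells reprogrammed to a state like that of the early embryo. Per the labels, 3 libraries came from SRFΔ/Δ iPSCs (SRF KO), which lack serum response factor through deletion of its gene, and 3 from SRFf/f iPSCs (WT), which carry the intact conditional alleles, and both were grown in medium with serum. The labels do not say whether replicates are separate clones or cultures, so that p-values measure only the spread between these libraries, which may be technical.

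The primitive streak is the site at which epiblast cells of the gastrulating embryo leave their epithelium and become mesoderm and definitive endoderm. Nodal, Wnt, BMP and FGF signals switch on a set of T-box, homeodomain and basic helix-loop-helix factors there. Pluripotent cells in culture transcribe some of these genes at low levels, and several of them are also used elsewhere: Lhx1, Gsc and Eomes in visceral endoderm, Foxf1 in lateral and extraembryonic mesoderm and in mesenchyme.

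Of the 10 genes, 3 rose in SRF KO (Lhx1, Gsc and Foxf1), 1 fell (T), 3 did not pass the test (Eomes, Mixl1 and Tbx6) and 3 had too few counts to be tested (Evx1, Mesp1 and Msgn1). The 4 genes that changed are 4 of 7 tested, against 42.4% of the 14778 genes tested over the whole table at an adjusted p under 0.05 (21.2% higher and 21.3% lower), so that the number of changed genes is not set apart from this background. All 4 changed by at least 1 on the log2 scale, which 7.29% of all genes tested did while passing the test. No weight is put on this count, because Lhx1, Gsc and Foxf1 reached the minimum level of the filter in all 3 SRF KO libraries but not in all WT libraries, and had to be high in SRF KO to be tested at all. The same 4 genes showed no overlap between the 3 SRF KO and the 3 WT levels, as did 52.7% of all genes tested (26.2% higher and 26.5% lower). Levels are TMM-scaled CPM, in which counts are divided by the effective size of their library, and adjusted p-values come from the edgeR quasi-likelihood test, with the Benjamini-Hochberg method over all entries tested.

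Libraries held from 26321602 to 36680156 counts, so that 3 counts, the limit that a count of 0 allows, stood for 0.0828 to 0.117 CPM. Srf, the targeted gene, had 113, 84 and 131 counts in SRF KO and 1326, 765 and 1066 in WT. Some Srf reads thus remained in every SRF KO library, and their source was not tested. The pluripotent cell markers fixed for the check of the label were all detected, with a summed level of 4640 to 4696 CPM in SRF KO and 5631 to 6188 CPM in WT. Of these 10 markers 5 fell, 1 rose and 4 did not pass, beside 21.3% lower and 21.2% higher over all genes tested. Their median log2 fold change was -0.30. The 1 rise was lost at an adjusted p under 0.01, and also without SRF KO replicate 1, SRF KO replicate 2, WT replicate 1 or WT replicate 3. WT replicate 2 stood apart from the other 2 WT libraries on the second principal component, and leaving it out ended none of the calls on the 10 genes. RNA was taken from whole cultures, in which fewer cells of a type and less RNA per cell cannot be told apart.

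**Figure D1:**
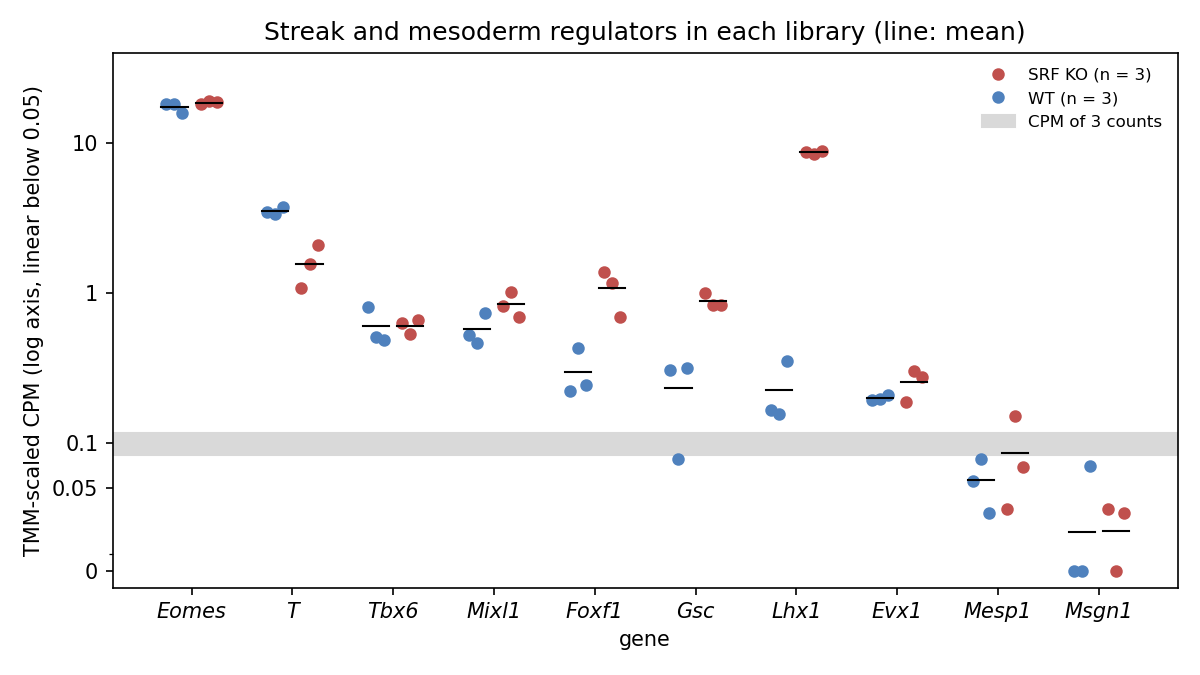
TMM-scaled CPM of each of the 10 genes (x axis, ordered by WT level) in the 3 SRF KO libraries (red) and the 3 WT libraries (blue), with the mean of each group as a line and the CPM of 3 counts as a grey band; the y axis is logarithmic above 0.05. Lhx1 moves from 0.223 to 8.70 CPM, T moves down, and Mesp1 and Msgn1 lie around the band or below it in both groups.

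The promoters of the genes that changed, and that of Mesp1, are shown first, because SRF binds DNA directly at a short element, the CArG box, and its presence can be read from the sequence. Windows of 300 bases, 250 before to 50 after the start, were taken from RefSeq (GRCm38.p6, the mm10 build), which gave one for 8 of the 10 genes; none was matched for Mixl1 and Foxf1. Each is printed 5′ to 3′ on the strand of its gene, in lower case with motif matches in capitals (Mesp1 only): Lhx1 (chr11:84525485-84525784, minus strand), Gsc (chr12:104473187-104473486, minus strand), T (chr17:8434173-8434472, plus strand) and Mesp1 (chr7:79793541-79793840, minus strand).
Lhx1: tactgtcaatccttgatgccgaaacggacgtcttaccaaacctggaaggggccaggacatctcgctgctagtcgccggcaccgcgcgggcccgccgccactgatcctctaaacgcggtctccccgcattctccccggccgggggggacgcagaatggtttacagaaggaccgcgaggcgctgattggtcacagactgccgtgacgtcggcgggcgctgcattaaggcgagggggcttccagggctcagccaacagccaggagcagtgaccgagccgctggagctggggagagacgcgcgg
Gsc: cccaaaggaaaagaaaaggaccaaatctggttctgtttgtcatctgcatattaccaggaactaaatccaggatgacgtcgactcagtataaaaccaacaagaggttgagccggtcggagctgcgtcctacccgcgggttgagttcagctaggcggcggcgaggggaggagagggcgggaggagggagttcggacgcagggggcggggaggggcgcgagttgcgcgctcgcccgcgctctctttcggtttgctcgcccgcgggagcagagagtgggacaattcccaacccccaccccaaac
T: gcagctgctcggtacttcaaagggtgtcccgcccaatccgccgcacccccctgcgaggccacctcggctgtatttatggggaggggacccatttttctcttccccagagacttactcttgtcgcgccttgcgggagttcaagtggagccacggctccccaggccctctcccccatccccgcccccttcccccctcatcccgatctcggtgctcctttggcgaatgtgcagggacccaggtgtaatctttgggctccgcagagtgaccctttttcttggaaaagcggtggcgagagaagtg
Mesp1: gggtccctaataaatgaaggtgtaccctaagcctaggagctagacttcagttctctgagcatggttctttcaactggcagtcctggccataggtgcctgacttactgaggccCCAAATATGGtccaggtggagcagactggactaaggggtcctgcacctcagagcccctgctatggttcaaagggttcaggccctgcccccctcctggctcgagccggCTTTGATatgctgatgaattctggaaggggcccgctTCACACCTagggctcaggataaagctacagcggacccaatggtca

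Both strands were searched for the CArG box, for a T-box site (AGGTGTGA), for a site of the Wnt effectors TCF/LEF (CTTTGAT) and for a site of the Nodal effector FOXH1 (TGTGGATT). Among the 8 genes, Mesp1 alone held a CArG box, at position -138 from the start, where 1.63% of all 32851 RefSeq windows of the same length hold one. The same Mesp1 window held a TCF/LEF match at -31 (3.73% of all windows) and a T-box match at position 6 of the transcript (1.28% of all windows), and the 3 matches do not overlap. GENCODE M21 places the start of Mesp1 at 79793788, farther upstream within this window. By that annotation all 3 matches lie downstream of the start. The starts of some other genes, such as Gsc, also differ between RefSeq and GENCODE M21. Msgn1 held a TCF/LEF match at -203. Lhx1, Gsc, T, Eomes, Tbx6 and Evx1 held none of the 4 motifs in these windows, which says only that these letters are not in them. Lhx1 and Gsc had CpG-rich windows, with observed-to-expected CpG ratios of 0.961 and 0.934 beside a median of 0.384 over all windows. Foxf1, the other gene that rose, had no window, and a link between these ratios and the changes was not tested. The ratios of T, Eomes and Evx1 were 0.607, 0.607 and 0.710, and those of Mesp1, Msgn1 and Tbx6 were 0.174, 0.197 and 0.286.

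Lhx1 encodes a LIM-homeodomain factor that is needed for head formation and acts in the visceral endoderm, the anterior streak and later the kidney. The gene lies on chromosome 11 at 84518284 to 84525535 (mm10, minus strand) and has up to 5 exons. The SRF KO libraries had 236, 225 and 256 counts and the WT libraries 6, 4 and 10, in the order of replicates 1 to 3 (kept below). Every SRF KO library was thus far above every WT library, and the WT libraries were just above the 3-count limit. The level rose from 0.223 ± 0.109 CPM to 8.70 ± 0.184 CPM (SD, n = 3), which is 5.27 on the log2 scale (SE 0.20, edgeR adjusted p 3.6e-09). This was number 14 in the order of the largest rises among the genes tested. Lhx1os, a transcript that starts 125 bases from Lhx1 on the opposite strand, had 5, 4 and 1 counts in SRF KO and 0, 0 and 1 in WT. Lhx1 and Lhx1os do not overlap in GENCODE M21, while the annotation and the use of strand in counting are not stated.

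Gsc encodes goosecoid, a homeodomain repressor of the anterior streak and organizer (chromosome 12, 104471209 to 104473330, minus strand, 3 exons). It had 27, 22 and 24 counts in SRF KO and 11, 2 and 9 in WT, so that every SRF KO library was above every WT library. Its mean was 0.888 ± 0.0999 CPM with SRF deleted and 0.232 ± 0.133 CPM in WT (SD, n = 3), and the log2 fold change was 1.86 (SE 0.35, edgeR adjusted p 0.0013). WT replicate 2, with 2 counts, was the lowest, and without it the log2 fold change was 1.52.

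Foxf1, a forkhead factor of lateral plate and extraembryonic mesoderm, lies on chromosome 8 at 121084386 to 121088144 (plus strand, 2 exons). It had 37, 31 and 20 counts in SRF KO and 8, 11 and 7 in WT. SRF KO replicate 3 was the lowest of its group but still above all WT libraries. The mean went up from 0.297 ± 0.113 CPM to 1.08 ± 0.351 CPM (SD, n = 3), or by 1.88 on the log2 scale (SE 0.35, edgeR adjusted p 0.0012). Its long non-coding neighbour Fendrr, which starts 1.28 kb away on the opposite strand, had 0, 3 and 4 counts in SRF KO and 2, 1 and 1 in WT, too few for a comparison.

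T (brachyury), the founding T-box gene, marks the streak and is needed for posterior mesoderm and notochord. It lies on chromosome 17 at 8434423 to 8442496 (plus strand, up to 8 exons). Its counts were 29, 41 and 60 in SRF KO and 125, 86 and 107 in WT. The WT libraries lay close together at 3.45, 3.34 and 3.73 CPM, while the SRF KO libraries spread from 1.08 to 2.07 CPM and all stayed below them. SRF KO held 44.7% of the WT level (1.57 ± 0.498 against 3.51 ± 0.200 CPM, SD, n = 3), and the log2 fold change was -1.15 (SE 0.19, edgeR adjusted p 0.0006). This was -0.95 when SRF KO replicate 1 was left out and -1.42 when replicate 3 of that group was.

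Eomes, a T-box factor needed in the epiblast for definitive endoderm and for cells to leave the streak, and in the trophoblast and visceral endoderm, had the highest level of the 10 genes per length of exon in every library (chromosome 9, 118478212 to 118486132, plus strand). It had 488, 503 and 541 counts in SRF KO and 661, 470 and 457 in WT. On the CPM scale the groups overlapped, at 18.1 to 19.0 in SRF KO and 15.9 to 18.3 in WT. The log2 fold change was 0.09 (SE 0.08, edgeR adjusted p 0.38), with a 95% interval of -0.08 to 0.26, so that a change of the size seen for T lies outside the interval.

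Tbx6, the T-box gene of paraxial mesoderm, had 17, 14 and 19 counts in SRF KO and 29, 13 and 14 in WT (chromosome 7, 126781483 to 126785560, plus strand). Its log2 fold change was -0.02 (edgeR adjusted p 0.97) with a 95% interval of -0.63 to 0.59, and its sign turned with the scaling. Mixl1, a paired-type homeodomain factor of the streak (chromosome 1, 180693043 to 180697034, minus strand), had 22, 27 and 20 counts in SRF KO and 19, 12 and 21 in WT. The groups of Mixl1 overlapped. Its log2 fold change was 0.54 (SE 0.26, edgeR adjusted p 0.12), and the 95% interval of -0.03 to 1.12 also holds a log2 fold change of 1.

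The remaining genes were near the limit of detection. Evx1, a homeodomain gene next to the HoxA cluster (chromosome 6, 52313498 to 52318378, plus strand), had 5, 8 and 8 counts in SRF KO and 7, 5 and 6 in WT. Mesp1, a basic helix-loop-helix gene of the earliest mesoderm and heart progenitors (chromosome 7, 79792241 to 79793788, minus strand), had 1, 4 and 2 counts in SRF KO and 2, 2 and 1 in WT, at or under 3 counts in 5 of 6 libraries. Msgn1, a basic helix-loop-helix gene of presomitic mesoderm with 1 exon (chromosome 12, 11208360 to 11208972, minus strand), had 1, 0 and 1 counts in SRF KO and 0, 0 and 2 in WT, at or under 3 in all 6. Of the 10 genes, only Mesp1, Msgn1 and Gsc had any library at or under 3 counts. Summed over each group and scaled, the ratio of SRF KO to WT was 1.28 for Evx1 (exact 95% interval 0.652 to 2.56), 1.54 for Mesp1 (0.421 to 6.16) and 1.10 for Msgn1 (0.0798 to 15.2). These intervals cover counting error only, and a difference in these 3 genes was not detectable at this depth.

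**Figure D2:**
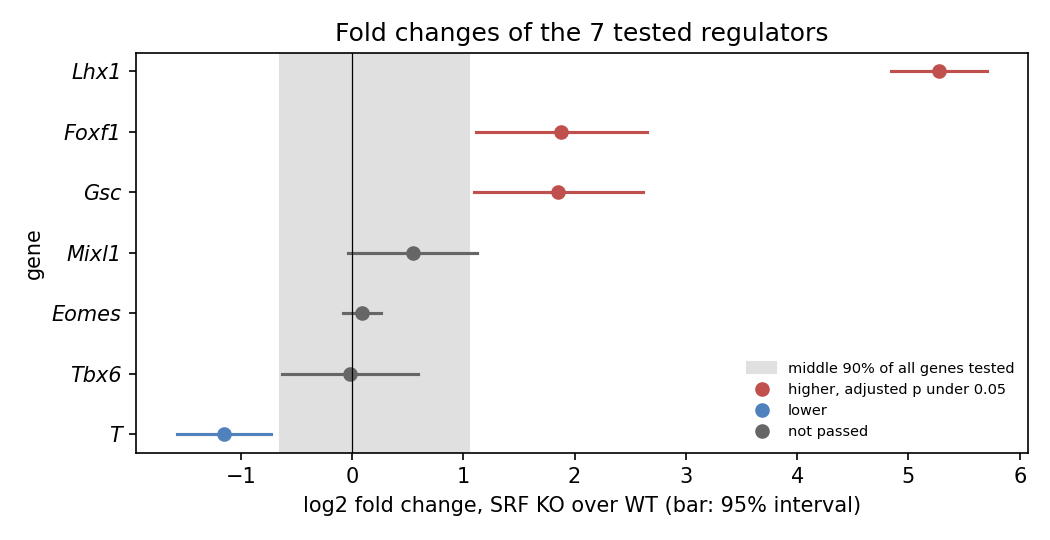
Log2 fold change of SRF KO over WT for the 7 tested genes, with 95% intervals from the edgeR fit; the grey band holds the middle 90% of all genes tested, -0.65 to 1.05. Lhx1 stands far to the right at 5.27, Foxf1 and Gsc near 1.9, and T at -1.15; the intervals of Mixl1, Eomes and Tbx6 include 0.

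To compare levels between genes, CPM was divided by the length of the union of exons in GENCODE M21, which may not be the annotation used for counting. In WT the order was Eomes at 4.21 ± 0.324, T at 1.51 ± 0.0862, Tbx6 at 0.331 ± 0.0974, Mixl1 at 0.250 ± 0.0608, Gsc at 0.183 ± 0.105 and Foxf1 at 0.123 ± 0.0469 CPM per kb (SD, n = 3). Evx1, Lhx1, Mesp1 and Msgn1 followed at 0.0691, 0.0548, 0.0439 and 0.0379 CPM per kb. The WT libraries separated Eomes from T, T from Tbx6, and Foxf1 from Evx1, while all other neighbours in this order overlapped. In SRF KO, Lhx1 came next to the top, at 2.14 ± 0.0453 CPM per kb, after Eomes at 4.48 ± 0.105. Gsc and T followed apart from Lhx1, at 0.700 ± 0.0788 and 0.677 ± 0.215 CPM per kb, and overlapped. Foxf1, Mixl1 and Tbx6 formed a run of overlapping neighbours from 0.447 to 0.336 CPM per kb. Below them, and apart from Tbx6, lay Evx1 at 0.0885, Mesp1 at 0.0673 and Msgn1 at 0.0390.

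**Figure D3:**
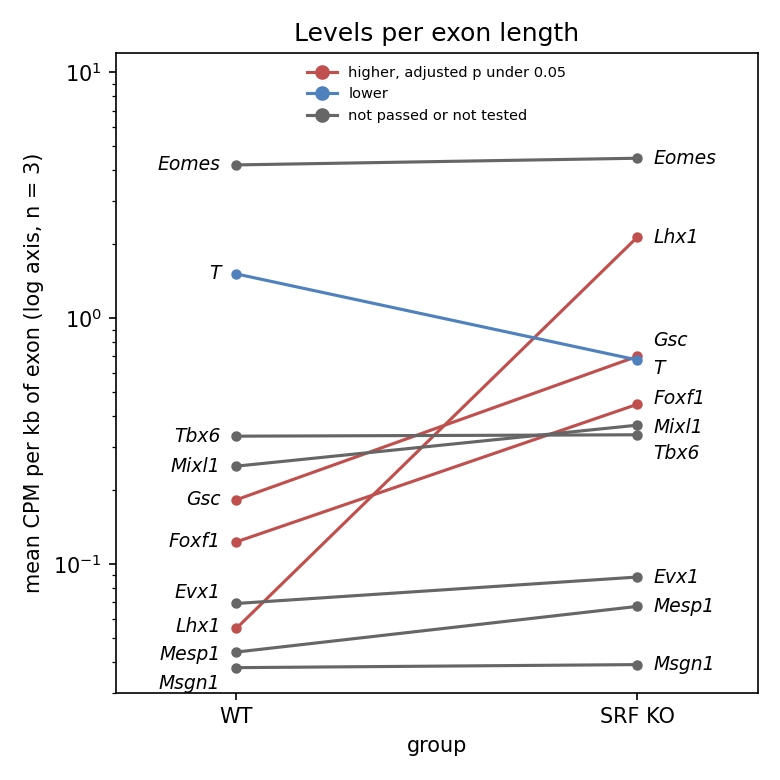
Mean CPM per kb of exon (log axis, n = 3 per group) of the 10 genes in WT and SRF KO, each gene joined by a line coloured by its call. Lhx1 goes from 0.0548 in WT, 8 of 10 in order, to 2.14 in SRF KO, 2 of 10, after Eomes, and T goes from 1.51 to 0.677.

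Of the signals that induce the streak, 13 of 15 listed were tested: 3 rose, 3 fell and 7 did not pass, close to the 21.2% higher and 21.3% lower over all genes tested, with a median log2 fold change of -0.08 beside -0.01 over all genes tested. Bmp4, a ligand made by extraembryonic tissue in the embryo, rose from 28.6 to 53.3 CPM (0.90 on the log2 scale, edgeR adjusted p 3.4e-07), and Foxh1, the DNA-binding partner of Nodal's SMAD effectors, rose by 0.67. Fgf8 and Wnt8a, ligands of the streak itself, fell by 0.94 and 0.80 on the log2 scale, from 1.50 to 0.782 and from 2.05 to 1.17 CPM. The median turned to 0.05, 0.06 and 0.05 without SRF KO replicate 1, SRF KO replicate 2 and WT replicate 1.

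Secreted antagonists of these signals gave 6 rises and 1 fall among 9, with a median of 1.09, beside 21.2% higher and 21.3% lower over all genes tested. Dkk1, a Wnt antagonist, rose from 0.428 to 13.7 CPM and Cer1, an antagonist of Nodal and BMP, from 0.0870 to 2.15 CPM (log2 fold changes 5.02 and 4.55, edgeR adjusted p 6.2e-09 and 7.2e-07). Cer1 had 3, 1 and 4 counts in WT, so that its fold change rests on a level near the floor. Dkk1, Cer1 and Nog, also of this list, reached the filter level in all 3 SRF KO libraries but not in all WT libraries. They entered the test through their SRF KO levels, and the count and median of this list carry that limit. In the embryo Dkk1 and Cer1 are made by the anterior visceral endoderm, where Lhx1 and Gsc are also transcribed. Lefty1, a Nodal antagonist of the same tissue that was named after its value was seen, was the 1 fall, from 80.3 to 51.4 CPM (-0.64 on the log2 scale, edgeR adjusted p 3.7e-05). Fst, an antagonist of activin, and Lefty2, a Nodal antagonist of the streak and its mesoderm, rose by 1.09 and 0.49.

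Other transcription factors of the streak and tail bud gave 3 rises and 2 falls among 11 tested of 14, a share near the 42.4% of all genes tested that changed, with a median of 0.17 that was -0.01 without SRF KO replicate 1. Lef1 and Tcf7, which carry the Wnt signal to DNA, fell by 0.82 and 0.46 on the log2 scale (edgeR adjusted p 4.5e-07 and 3.6e-05). Snai1 and Snai2, repressors of epithelial genes in cells that leave the streak, rose by 0.90 and 1.29.

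Genes of later mesoderm were counted apart from the regulators, and are set beside the 21.2% higher and 21.3% lower over all genes tested. Of 10 paraxial genes tested among 14, 5 rose and 1 fell, with a median of 0.27; without SRF KO replicate 3 or without WT replicate 2 the falls were 2, and without the latter the median was 0.12. Dll1, a Notch ligand of presomitic mesoderm, fell from 11.6 to 6.58 CPM, while Rspo3, Foxc1 and Foxc2 rose by 1.30, 1.09 and 0.85 on the log2 scale. Of 11 genes of lateral and blood mesoderm tested among 15, 6 rose and 2 fell, with a median of 0.79. Cdh5, the cadherin of endothelium, rose from 0.195 to 4.54 CPM, and Kdr, a VEGF receptor, rose by 1.49 on the log2 scale. Pecam1, an adhesion molecule of endothelium that pluripotent mouse cells also carry, fell by 0.92. Foxf2, the closest relative of Foxf1, had 14 counts in each SRF KO library and 3, 3 and 0 in WT, at least 5.04-fold higher against a floor of 3 counts per library. Cdh5 and Foxf2 reached the filter level in all 3 SRF KO libraries but in 0 WT libraries, and thus entered the test through their SRF KO levels.

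The families of T and Lhx1 were examined next. Of the other T-box genes, 8 of 14 were tested, and Tbx15, Tbx18 and Tbx2 rose by 1.40, 1.08 and 0.82 on the log2 scale. The other 5 did not pass, and the median was 0.27. Counted in either direction, these 3 of 8 are no larger a share than the 42.4% over all genes tested. All 3 rose, where 21.2% of all genes tested were higher, and the share rests on only 8 genes. The rises were 2 under DESeq2, at an adjusted p under 0.01, and without SRF KO replicate 1, SRF KO replicate 3 or any WT replicate. Without WT replicate 3, 1 gene of this list was also called lower. Tbx2 reached the filter level in all 3 SRF KO libraries but in only 1 WT library. Among the other LIM-homeodomain genes and the partners of LIM-homeodomain proteins, 8 of 16 were tested and 2 rose, Ssbp2 and Ssbp4, by 0.71 and 0.37. Over all genes tested, 21.2% were higher. The median was 0.12, or 0.31 without WT replicate 3; 4 rose without WT replicate 1, and 1 fell without WT replicate 2. None of the tested members of this list changed as much as Lhx1, the range being -0.12 to 0.91.

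**Figure D4:**
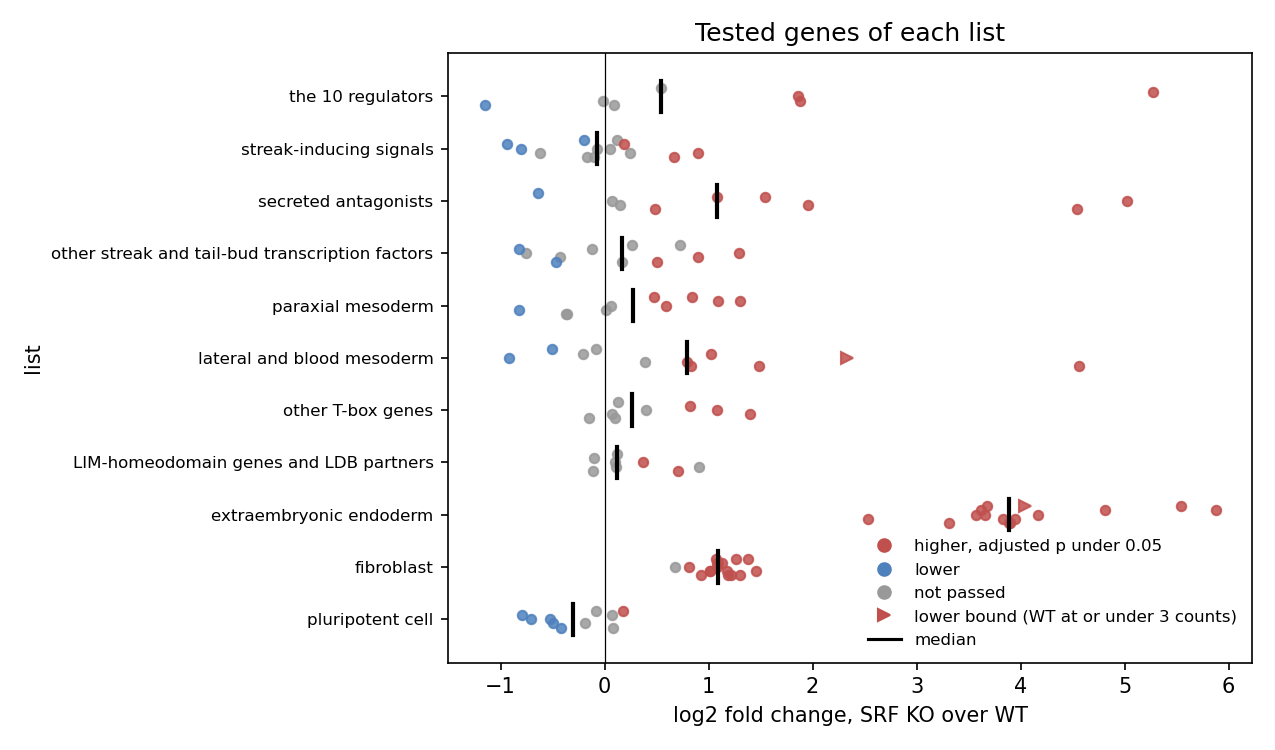
Log2 fold change of SRF KO over WT for each tested gene of the lists, coloured by its call, with the median of each list as a black line; triangles are lower bounds. The fitted values of the extraembryonic endoderm genes run from 2.54 to 8.60, and 1 of these genes is drawn as a lower bound. The fibroblast genes lie near 1.09, and the lists of streak and mesoderm genes spread to both sides of 0.

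Markers of pluripotent cells and of other cell types moved with these results. Their lists were chosen with earlier results of these data known, and the shares and ranges given here carry that limit. Of the pluripotent cell markers, Nanog, Tfcp2l1, Klf4 and Esrrb fell by 0.79, 0.70, 0.52 and 0.49 on the log2 scale. All 15 tested genes of extraembryonic endoderm, of 16 listed, rose, beside 21.2% of all genes tested. Their median was 3.89, and their summed level was 1475 to 1637 CPM in SRF KO and 76.8 to 82.8 CPM in WT. Gata6, Dab2, Lrp2 and Cubn rose by 3.66, 3.68, 3.89 and 5.88 on the log2 scale, and the rises of Lhx1, Dkk1 and Cer1 lay within the range of this list, from 2.54 up. Genes of the lateral and blood mesoderm list lay in the same range, Cdh5 at 4.56 and Foxf2 at a fitted 2.87. The values of Cer1 and Foxf2 rest on WT counts near the floor. Gsc at 1.86 (95% interval 1.09 to 2.62, which reaches into the endoderm range), Eomes at 0.09, which did not pass the test, and Lefty1 at -0.64 lay below that range. Afp, a gene of visceral endoderm, was at or under 3 counts in all libraries. Ttr was at 0 counts in all WT libraries, so that it was tested only through its SRF KO level. Of 17 fibroblast genes 16 rose, beside 21.2% of all genes tested. Their median was 1.09, and their summed level was 1544 to 1877 CPM in SRF KO and 748 to 871 CPM in WT. No fibroblast gene was at or under 3 counts in all libraries, and Prrx1, Fbn1, Col5a2 and Col3a1 rose by 1.13, 1.38, 1.22 and 1.09. The rise of Foxf1 was 1.88 with a 95% interval of 1.11 to 2.65, which overlaps the range of the fibroblast list, 0.68 to 1.46. The part of these cell types in the rises of Lhx1, Gsc and Foxf1 was not tested.

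For the 4 genes that changed, the genes with the most similar pattern over the 6 libraries were found, by the Euclidean distance between log2 CPM profiles, each centred on its own mean, among genes with a mean CPM within 2-fold. Nearest to Lhx1 were Tfec, Nxf7 and Aqp8, at distances of 0.270, 0.523 and 0.590. Nearest to Gsc were Kazald1, Tmprss2 and Apol9a, at 0.389, 0.462 and 0.464. Foxf1 lay nearest to Lrrc4c, Adamtsl3 and H60b, at 0.477, 0.513 and 0.550. T lay nearest to Nrsn1, Ppp4r4 and Ubash3a, at 0.396, 0.438 and 0.442, with log2 fold changes of -1.17, -1.29 and -1.21. With 2 groups in 6 libraries, such a distance mostly reflects the size of the difference between the groups.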

How the data were processed

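RNA of 6 mouse iPSC libraries (3 SRF KO, 3 WT) was sequenced as paired reads, which were cleaned of adaptors, poor sequence and empty reads, per the labels' protocols. The submitters' processing notes name mm10 and DESeq2; the aligner, counting program, annotation and strand setting are not given in the sources used here. The deposited table holds whole-number counts per gene and per transposable element subfamily, without normalization by the authors, judged from its values. Each column was matched to its sample by name.

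One model covered all entries (R 4.3.3, edgeR 4.0.16), with filterByExpr at a minimum count of 10, TMM scaling and the quasi-likelihood test of SRF KO against WT, with Benjamini-Hochberg adjustment over 15611 entries and a threshold of 0.05. SEs were derived from the fold change and its F statistic. The scripts were tested on simulated data. Gene coordinates and exon lengths are from GENCODE M21 (GRCm38, the mm10 assembly). Total counts of 26321602 to 36680156 give a gene with few counts a wide counting error, which the intervals state.

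Named are the 10 genes, Srf, up to 4 genes of each list with the smallest p past the threshold, the protein-coding neighbours and opposite-strand transcripts within 5 kb of each of the 10, and the 3 genes most similar in pattern to each gene that changed. Lefty1, Nog, Ttr and Afp, and other counts given for list members at the floor, were named after their values were seen. The genes and lists were chosen with earlier results of these data known. Alternatives were DESeq2 1.42.0, other scalings, no filter, gene entries alone, stricter thresholds, leaving out each library and a replicate block. Replicate libraries were compared in pairs by chi-square, which ran from 1.60 to 14.7 per degree of freedom. Each was therefore counted once as its own library, which does not show whether replicates are separate clones or cultures.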

Additional observations from a re-analysis of the deposited data

How the results depend on the processing

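The numbers of regulators called, 3 higher and 1 lower, were the same under DESeq2, size-factor scaling, total-count scaling, no filter, gene entries alone, both stricter thresholds, the replicate block and without each library. The calls and directions of T, Lhx1, Foxf1, Gsc, Eomes and Mixl1 held too. When single libraries were left out in turn, T was between -1.42 and -0.95, Lhx1 between 5.06 and 5.71, Foxf1 between 1.67 and 2.19 and Gsc between 1.52 and 2.11. Tbx6, which did not pass the test in any fit, reversed from -0.02 to 0.012 under DESeq2, 0.019 with total counts and 0.013 with the replicate block, and ranged from -0.15 to 0.29 when single libraries were left out, with 0.08 without SRF KO replicate 2. Without WT replicate 1 it was 0.29. The cause was not tested. Over all genes, the number lower was 2013 at an adjusted p under 0.01, against 3141 at 0.05. At an adjusted p under 0.05, requiring also a log2 change of 1 or more in size left 817 higher and 260 lower. Such thresholds can only lower counts. With this fold requirement no streak-inducing signal and no LIM-homeodomain or LDB gene was called, against 6 and 2 at an adjusted p under 0.05 alone. With no filter the median of the other T-box genes was 0.81, which includes fits to genes with hardly any counts.

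Deviations from the group means correlated at 0.0446, 0.360 and 0.220 between libraries of replicate numbers 1, 2 and 3, over 12920 entries. SRF KO replicates 2 and 3 each correlated best with the WT replicate of the same number, while SRF KO replicate 1 correlated best with WT replicate 3 (0.259). Whether the replicate numbers pair the libraries is not settled by these values. With the replicate block, 3659 genes were higher and 3853 lower, against 3132 and 3141 without it. The regulators called were again 3 higher and 1 lower, and the LIM-homeodomain and LDB list had 4 higher and 1 lower and the other T-box genes 1 lower. Depth limits Evx1, Mesp1 and Msgn1, with at most 8 counts in any library.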

Other observations

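The genes next to the 10 regulators on their chromosomes were compared as well. Of 20 protein-coding neighbours in GENCODE M21, 17 were tested, of which 2 rose and 4 fell, against 42.4% of all genes tested that changed in either direction. The neighbours of Lhx1, Aatf at 4.76 kb and Mrm1 at 288 kb, had log2 fold changes of 0.10 and -0.23 and did not pass the test (edgeR adjusted p 0.24 and 0.072), beside 5.27 for Lhx1. Gsc lies between Serpina3n, a serine protease inhibitor gene 56.9 kb away that rose by 1.54 on the log2 scale, and Dicer1, which encodes the nuclease of small RNA processing and fell by 0.30. Pde10a, a phosphodiesterase gene 82.9 kb from T, rose by 1.62 on the log2 scale while T fell (edgeR adjusted p 1.2e-05). T2, 10.9 kb from T on its other side, had 6, 3 and 7 counts in SRF KO and 13, 7 and 7 in WT and was not tested. Mthfsd, 3.48 kb from Foxf1, had a log2 fold change of 0.14 and did not pass (edgeR adjusted p 0.30). Mesp2, the relative of Mesp1 that lies 16.9 kb from it and patterns somites, had 61, 65 and 80 counts in SRF KO and 81, 48 and 60 in WT and did not pass the test (0.27, edgeR adjusted p 0.18). Hibadh, 228 kb from Evx1, and Ypel3, 0.969 kb from Tbx6, fell by 0.57 and 0.33 on the log2 scale. Wdr93, 6.29 kb from Mesp1, fell by 0.44 (edgeR adjusted p 0.043). Apart from Fendrr, the opposite-strand transcripts of Eomes, Foxf1, Tbx6, Gsc and Evx1 in GENCODE M21, such as Evx1os, had no entry in the count table. As it is not stated whether counting used strand, reads cannot be told apart where such a transcript overlaps its neighbour.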
